A study of Mus musculus with 4 samples.

Results

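The genes described here digest and absorb dietary sugar in the small intestine. They are the brush border disaccharidases Lct, Treh, Mgam and Sis, the sugar transporters Slc5a1, Slc2a2 and Slc2a5, and Khk, which encodes ketohexokinase. They were chosen by symbol, and every probe set annotated to 1 of these 8 genes alone was read on the 4 arrays of the series. Probe sets were found for 7 of the 8 genes, of 18193 genes that had a probe set of their own. Slc5a1 had 2 probe sets and the other genes had 1 each, which makes 8 probe sets. No probe set is annotated to Sis, the sucrase-isomaltase gene, in the table used here, so it is without a value below.

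Gene expression was compared in epithelial cells and in Peyer's patch cells, the cells of the lymphoid nodules of the gut wall. The 4 arrays carried RNA from epithelial cells of germ-free (GF) C57BL/6 mice colonized with Lactobacillus NK318.1, epithelial cells of GF C57BL/6 mice without bacteria, Peyer's patch cells of the colonized mice and Peyer's patch cells of the GF mice. All of these mice lived in vinyl isolators. The colonized mice received 100000000 bacteria of this strain, their only one, and were sampled 2 weeks later. The labels call the epithelial cells intestinal, and a figure legend of the study places them in the ileum. The mice of each group were pooled by that legend. General methods for giving bacteria to mice taken from the isolator describe animals 4 weeks old, and no age for the mice of these arrays themselves was found in the sources used here. With 1 array per group there was no replicate, so no spread between mice, no test and no p-value could be had, and every ratio below compares 2 arrays.

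The labels of tissue and the sex of the pools were checked first. Median signals of the arrays lay between 23.0 and 23.3. The leukocyte gene Ptprc gave 23.1 and 271 in epithelial cells of NK318.1 and GF mice, against 5235 and 5152 in their Peyer's patches, while the enterocyte gene Fabp1 gave 4666 in NK318.1 and 6604 in GF epithelial cells, against 43.5 and 35.3 in the Peyer's patches of NK318.1 and GF mice. Xist, which is transcribed from the inactive X chromosome of female cells, gave 4889 in NK318.1 and 46.7 in GF epithelial cells, and 4586 in NK318.1 and 21.7 in GF Peyer's patches. Eif2s3y, a gene of the Y chromosome, gave 2.41 in NK318.1 and 147 in GF epithelial cells. The pools therefore differed in sex in both tissues, and colonization and sex cannot be told apart in any comparison below.

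Starch, sucrose, lactose and trehalose are cut to single sugars by enzymes anchored in the microvillus membrane of enterocytes, the absorptive cells of the villus. Glucose and galactose then enter the enterocyte with sodium through SGLT1, the product of Slc5a1, and fructose enters through GLUT5, the product of Slc2a5. GLUT2, the product of Slc2a2, carries all of these sugars out towards the blood. Ketohexokinase phosphorylates fructose and so keeps it in the cell. In mice lactase is high during suckling and declines around weaning, whereas sucrase-isomaltase and trehalase increase then. The transcription factors CDX2, HNF1, HNF4 and GATA4 are known to act at such genes in the intestine, and ChREBP, the product of Mlxipl, binds E-boxes near genes of fructose and glucose handling.

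The arrays measured transcripts and not promoters, and the promoter stretches below are shown because they hold the letters searched for these factors. They come from RefSeq (GRCm38.p6, as do the gene positions given below), which listed all 8 genes, and run 5′ to 3′ on the strand of the gene. Capitals mark a match on either strand to the HNF1 half-site GTTAAT, the CDX core TTTAT, the GATA core GATAA, the HNF4 motif CAAAGTCCA or the E-box CACGTG. The Lct stretch is chr1:128328349-128328438 on the minus strand, from 120 to 31 bases before the start. The Mgam stretch is chr6:40628671-40628800 on the plus strand, from 160 to 31 bases before the start. For Slc5a1 it is chr5:33104059-33104109 (plus strand, 160 to 110 bases before) and for Treh chr9:44673136-44673195 (plus strand, 97 to 38 bases before). For Khk it is chr5:30921484-30921513 (plus strand), 75 to 46 bases before the start used in the search. This Khk stretch lies inside the gene position given for Khk below, so the start used is not the first base of that position.
Lct: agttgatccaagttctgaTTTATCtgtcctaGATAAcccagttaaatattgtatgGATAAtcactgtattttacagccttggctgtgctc
Mgam: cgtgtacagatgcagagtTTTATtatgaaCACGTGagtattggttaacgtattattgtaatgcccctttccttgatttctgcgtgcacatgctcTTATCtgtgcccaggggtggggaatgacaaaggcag
Slc5a1: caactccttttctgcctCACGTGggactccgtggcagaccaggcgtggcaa
Khk: ccgtCACGTGacaccGTTAATctggcgcgg
Treh: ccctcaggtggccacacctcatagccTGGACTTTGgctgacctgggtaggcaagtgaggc

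The matches differed between the genes. The CDX core lay in the promoters of 3 of the 8 genes, Lct, Mgam and Sis, and in 37.3% of all 32851 promoters of the same length. The GATA core lay in Lct, Mgam and Slc2a2, against 22.6% of all promoters, and Lct held it 3 times. The first of these overlaps a CDX core on the other strand in the run TTTATC. The E-box lay in Mgam, Slc5a1 and Khk, against 6.02% of all promoters, and the HNF1 half-site in Khk and Sis, against 6.43%. The HNF4 motif was found in Treh alone among the 8 genes, on the reverse strand, 71 to 63 bases before the start, and in 0.384% of all promoters. Slc2a5 held none of these letters in its window. A match is a run of letters and not a site, and binding was not measured here.

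All 7 genes with a probe set were much higher in epithelial cells than in the Peyer's patch. Each exceeded the Peyer's patch at least 2-fold, both in NK318.1 mice (7 of 7, against 18.4% of all measured genes) and in GF mice (7 of 7, against 16.0%). A gene counted as measured when at least 1 of the 2 arrays compared was above a floor of 15.5, and lower signals were raised to this floor, which turns a ratio against them into a lower bound. Mgam, which encodes maltase-glucoamylase for the last steps of starch digestion, was at least 73.0-fold higher in epithelial cells than in the Peyer's patch of NK318.1 mice and at least 102-fold higher in GF mice. For Slc5a1 the bounds were 63.0-fold in NK318.1 and 89.5-fold in GF mice, and for Lct 27.4-fold in NK318.1 and 39.6-fold in GF mice. These were the 3 highest bounds in both kinds of mice. Treh was at least 8.80-fold higher in epithelial cells of NK318.1 mice and at least 14.3-fold higher in those of GF mice, and Slc2a2 at least 7.69-fold in NK318.1 and 9.45-fold in GF mice.

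Khk and Slc2a5, the pair of genes that serve fructose, were the only members above the floor on all 4 arrays, so their tissue ratios are not bounds. Khk was 9.91-fold higher in epithelial cells than in the Peyer's patch of NK318.1 mice and 14.1-fold higher in GF mice. Slc2a5 was 3.56-fold higher in epithelial cells of NK318.1 mice and 5.04-fold higher in those of GF mice, the lowest tissue ratio of the 7 in each kind of mouse. In the plot of signals by array the epithelial and Peyer's patch points of each gene do not overlap.

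**Figure D1:**
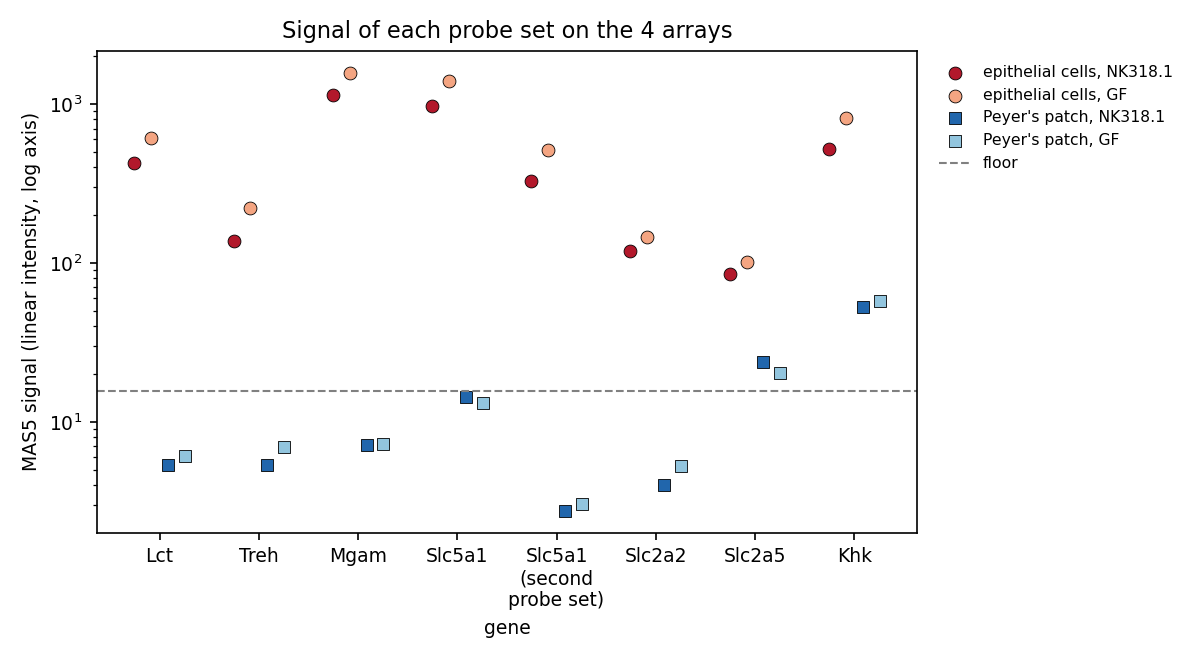
MAS5 signal (log axis) of the 8 probe sets on the 4 arrays, with 1 point per array and the floor of 15.5 as a dashed line. For every probe set the 2 epithelial points lie above the 2 Peyer's patch points, and the epithelial point of NK318.1 mice lies under that of GF mice.

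Lactobacillus NK318.1 colonization was then compared with the GF state within the epithelial cells. All 7 genes had a lower signal in the epithelial cells of NK318.1 mice than in those of GF mice, at 61.4% to 82.8% of the GF signal. None of the 7 was at least 2-fold lower, the fold limit of the study's methods, and none was at least 2-fold higher. Over all 13874 measured genes, 1.54% were at least 2-fold lower and 2.63% at least 2-fold higher. The median log2 ratio of the 7 genes was −0.51, with a range of −0.70 to −0.27, against a median of 0.02 over all measured genes, of which 47.6% were below 0. In bulk samples like these, fewer enterocytes and less RNA per enterocyte cannot be told apart.

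Among the disaccharidases, Treh, which encodes trehalase and cuts the trehalose of fungi and insects, stood lowest. Its signal was 136 in epithelial cells of NK318.1 mice and 222 in those of GF mice, and in the Peyer's patch it was 5.36 in NK318.1 and 6.99 in GF mice. The epithelial log2 ratio of −0.70 was the lowest of the 7 genes, and 4.24% of all measured genes had a ratio as low or lower. Treh lies at chr9:44673233-44686305, and its probe set carries the suffix that Affymetrix gives to sets shared by transcripts of 1 gene.

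Lct encodes lactase, which splits milk sugar, and lies at chr1:128284756-128328318. It had a signal of 425 in epithelial cells of NK318.1 mice and 615 in those of GF mice, against 5.37 in the Peyer's patch of NK318.1 mice and 6.06 in that of GF mice, both under the floor. The epithelial signal of NK318.1 mice was 69.2% of that of GF mice, a log2 ratio of −0.53, and 8.31% of measured genes lay at or below it.

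Mgam lies at chr6:40628831-40769123. The epithelial signal was 1132 in NK318.1 mice and 1574 in GF mice, and the Peyer's patch signal was 7.13 in NK318.1 and 7.26 in GF mice. Its log2 ratio in epithelial cells was −0.48, or 71.9% of the GF signal, and 10.2% of measured genes were as low or lower. The 3 disaccharidases thus kept 61.4% to 71.9% of the GF signal. Sis, at chr3:72888557-72967863, could not be set beside them, and the sucrase transcript was not analysed here.

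Of the transporters, Slc5a1, at chr5:33104219-33162699, could be read from separate probe sets. The brighter one gave 976 in epithelial cells of NK318.1 mice and 1389 in those of GF mice, a log2 ratio of −0.51, with 14.3 in the Peyer's patch of NK318.1 mice and 13.2 in that of GF mice. The other gave 327 in NK318.1 and 515 in GF epithelial cells, a log2 ratio of −0.66, with 2.75 in the Peyer's patch of NK318.1 and 3.06 in that of GF mice. Both probe sets of SGLT1 were lower in epithelial cells of NK318.1 mice, at 70.3% and 63.4% of the GF signal, and both lay under the floor in the Peyer's patch. By the brighter probe set, 9.10% of measured genes were as low or lower.

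The facilitative carriers stood closer to no difference. Slc2a2, at chr3:28697903-28728361, encodes GLUT2 of the basolateral membrane and gave 119 in epithelial cells of NK318.1 mice and 147 in those of GF mice, with 4.0 in the Peyer's patch of NK318.1 and 5.26 in that of GF mice. Its log2 ratio of −0.30 had 19.3% of measured genes at or below it. Slc2a5, at chr4:150119344-150144168, encodes the fructose carrier GLUT5 of the apical membrane and gave 84.5 in NK318.1 and 102 in GF epithelial cells. Its log2 ratio of −0.27 lay nearest to 0 of the 7, with 21.2% of measured genes at or below it. Both lay within 1 robust SD of the ratios of all genes, which was 0.37 on the log2 scale. The other 5 genes lay beyond it but inside the central 95% of all genes, −0.86 to 1.03.

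Khk, whose product phosphorylates the fructose that GLUT5 lets in, lay further down than its carrier. It lies at chr5:30921436-30931248 and gave 521 in epithelial cells of NK318.1 mice and 819 in those of GF mice. Its log2 ratio was −0.65, or 63.6% of the GF signal, against 82.8% for Slc2a5, and 5.10% of measured genes were as low or lower. Within the fructose pair, the kinase and the carrier therefore lay near opposite ends of the range of the 7 genes. The order of the 7 ratios rests on 1 array per group, and no neighbours in it can be shown to differ.

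**Figure D2:**
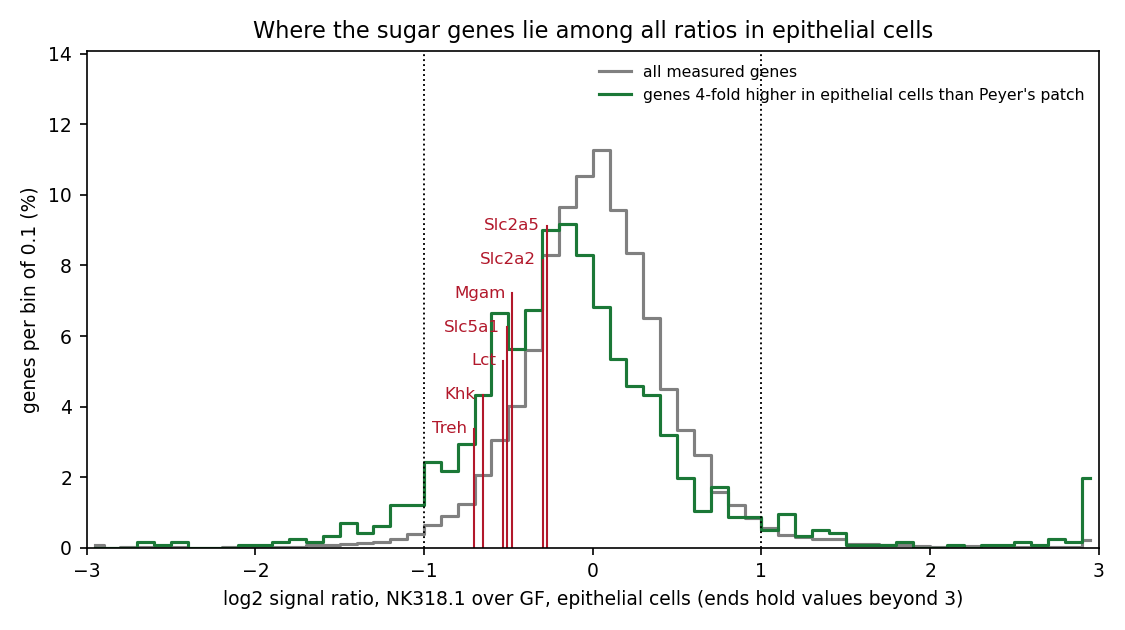
Share of genes in bins of 0.1 of the epithelial log2 ratio of NK318.1 over GF, for all measured genes (grey) and for genes at least 4-fold higher in epithelial cells than in the Peyer's patch (green). Red lines give the 7 sugar genes from Treh at −0.70 to Slc2a5 at −0.27, at heights that carry no value, and all lie between the dotted 2-fold line at −1 and 0.

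The sugar genes were then set against other genes of the epithelium, since the distribution of all genes includes many that any cell uses. Genes with an epithelial signal at least 4-fold above the Peyer's patch, taken over NK318.1 and GF together, numbered 1156 and included all 7. Their median log2 ratio was −0.15, with 63.1% below 0 and quartiles of −0.48 and 0.19. At least 2-fold lower were 5.71%, and at least 2-fold higher 6.14%. The mean over NK318.1 and GF also let in genes high in NK318.1 epithelial cells alone, such as the gastric gene Gkn2, with 9949 in NK318.1 and 12.5 in GF. Treh had 12.9% of these 1156 genes at its ratio or lower, and Khk 14.9%. The share was 21.5% for Lct, 23.1% for Slc5a1 and 25.7% for Mgam, and it reached 37.1% for Slc2a2 and 39.5% for Slc2a5. The 7 genes thus sat in the lower part of this set and not at its end. This set was chosen after the values had been seen.

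Against other enterocyte genes the sugar genes lay on both sides of the middle. Of the 7 sugar genes, 5 had a log2 ratio above the median of the enterocyte markers, by 0.38 for Slc2a5, 0.35 for Slc2a2, 0.17 for Mgam, 0.14 for Slc5a1 and 0.12 for Lct. Khk lay at −0.0043 and Treh at −0.056 from it. That median was −0.65, over 19 measured markers of 20 listed, and 17 of the 19 were below 0. The marker Vil1, which encodes villin of the microvillus core, had 1529 in epithelial cells of NK318.1 mice and 2398 in those of GF mice (log2 ratio −0.65), and Fabp1 had −0.50. The enterocyte markers at least 2-fold lower in epithelial cells of NK318.1 mice were the peptidases Anpep (−1.23) and Enpep (−1.04), the peptide carrier Slc15a1 (−1.19) and the lipoprotein gene Apob (−1.07, with −0.17 by its other probe set). Alpi, the intestinal alkaline phosphatase, went the other way with 0.44.

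Against the markers that all epithelial cells share, each sugar gene lay lower. The 7 sugar genes had log2 ratios of −0.59 to −0.16 relative to the median of the 15 pan-epithelial markers, which was −0.12. Epcam, an adhesion molecule of all intestinal epithelial cells, had 3623 in NK318.1 and 3926 in GF epithelial cells. The pan-epithelial range ran from −0.39 for Lgals4 to 0.54 for Tjp3, and 11 of the 15 were below 0. Summed over genes, the signal of the 7 sugar genes in epithelial cells was 3395 in NK318.1 and 4868 in GF mice. The enterocyte markers summed to 34645 in NK318.1 and 51573 in GF mice, and the pan-epithelial markers to 32979 in NK318.1 and 35611 in GF mice.

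**Figure D3:**
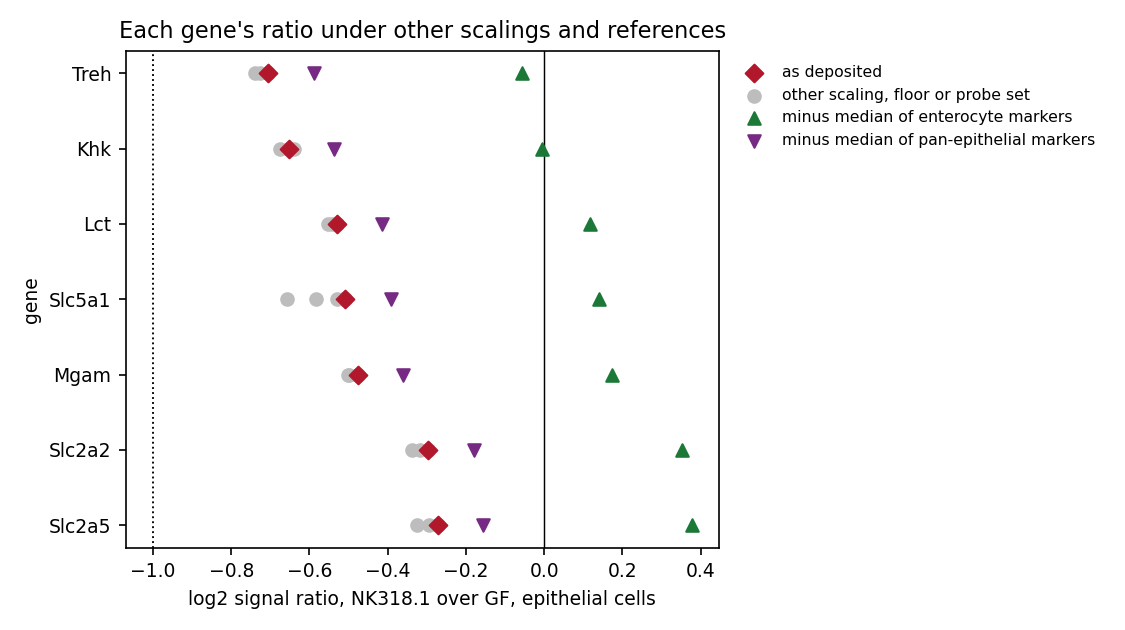
Epithelial log2 ratio of NK318.1 over GF for each sugar gene as deposited (red), under other scalings, floors and probe sets (grey), and after subtracting the median of enterocyte markers (green) or of pan-epithelial markers (purple). As deposited, all 7 lie under 0, and relative to the enterocyte markers 5 lie above 0.

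Other features of the epithelial arrays moved with this comparison, and their part in the lower sugar genes was not tested. Of 14 measured leukocyte markers, 10 were at least 2-fold lower in epithelial cells of NK318.1 mice, with a range from −4.62 for Gzmb to 0.24 for Cd3e and a summed signal of 1071 in NK318.1 and 6157 in GF epithelial cells. Gastric markers reached a log2 ratio of at least 9.33 for Gkn2, 12 of 15 were at least 2-fold higher, and their signal summed to 37096 in NK318.1 and 568 in GF epithelial cells. Pancreatic acinar markers were at least 2-fold higher in 12 of 14 cases, led by Cel at 3.79, and summed to 23539 in NK318.1 and 10994 in GF epithelial cells. Zg16, the lowest of that list at 0.036, alone made up 7518 of the sum in NK318.1 and 7331 in GF, most of the GF sum. All 9 measured ileal markers were below 0 and 6 were at least 2-fold lower, with sums of 3959 in NK318.1 and 10797 in GF epithelial cells. Fabp6 was lowest at −2.48, and Tmigd1 at −0.55 was highest of the ileal ratios that are not bounds. Slc10a2 stood at −0.26 or lower, with 6.27 in NK318.1, under the floor, and 18.6 in GF epithelial cells. For β-actin, the 3′ probe sets were brighter than the 5′ ones by a factor, known to increase with RNA breakdown, of 4.10 in NK318.1 and 2.73 in GF epithelial cells, and for Gapdh the factor was 1.61 in NK318.1 and 1.11 in GF epithelial cells.

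In the Peyer's patch, the sugar genes showed little signal and no difference past the limit. Khk and Slc2a5 were the 2 genes measured there, and neither was at least 2-fold lower or higher, against 0.573% of 12736 measured genes lower and 0.149% higher. Khk gave 52.6 in the Peyer's patch of NK318.1 mice and 57.9 in that of GF mice, a log2 ratio of −0.14. Slc2a5 gave 23.7 in NK318.1 and 20.2 in GF mice, a log2 ratio of 0.23, so that it stood at 117% of the GF signal in the Peyer's patch and at 82.8% in the epithelial cells. Slc2a5 lay close to the floor of 15.5 in both Peyer's patches. Lct, Treh, Mgam, Slc5a1 and Slc2a2 were under the floor on both Peyer's patch arrays, where no ratio was taken.

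The other sugar carriers had a more mixed pattern in epithelial cells. Of 18 measured carriers of 20 listed, 3 were at least 2-fold lower in NK318.1 mice, none was at least 2-fold higher, and 12 were below 0, with a median of −0.19. Those past the limit were Slc5a8, with 51.9 in NK318.1 and 184 in GF epithelial cells (log2 ratio −1.83), Slc2a13, with 21.3 in NK318.1 and 49.2 in GF (−1.21), and Slc5a4b, with 79.6 in NK318.1 and 175 in GF (−1.14). Slc5a8 belongs to the family of SGLT1 but carries lactate and short-chain fatty acids, Slc2a13 is a proton-coupled carrier of myo-inositol, and Slc5a4b is an SGLT3 gene. Its close relative Slc5a4a had 109 in NK318.1 and 124 in GF epithelial cells (−0.19). Slc2a1, the GLUT1 gene found in most cells, was the highest of the list, with 313 in NK318.1 and 215 in GF epithelial cells (0.54). Its 2 other measured probe sets gave 0.14 and 0.25.

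Lists of genes that act on sugars inside the cell had medians closer to 0 than the −0.51 of the sugar genes, with single genes further out, and the lists were not tested against each other. Of 12 measured genes of fructose and galactose metabolism of 17 listed, none passed 2-fold in epithelial cells, 9 were below 0 and the median was −0.22, from Galm at −0.68 to Galt at 0.26. Galm, which turns β-galactose to the form that galactokinase uses, had 255 in NK318.1 and 409 in GF epithelial cells. Its 2 other measured probe sets gave −0.60 and −0.17. In glycolysis and gluconeogenesis the median of 24 measured genes of 29 was −0.065, none was at least 2-fold lower, and Hk1, a hexokinase, was at least 2-fold higher with 178 in NK318.1 and 85.9 in GF epithelial cells (1.05). Pck1, a gluconeogenic enzyme, was lowest at −0.96, but its other probe set gave −0.12. The other glycosidases, mostly lysosomal, had a median of 0.14 over 11 measured genes of 20, from Ganab at −0.25 to Man2b1 at 0.57, and none passed 2-fold. The other probe set of Man2b1 gave −0.02. In the Peyer's patch, Aldh1a1, which is listed for aldehyde oxidation and is best known for making retinoic acid, was the only gene of the sugar-related lists at least 2-fold apart. It gave 14.9 in NK318.1 and 32.9 in GF mice, and since the NK318.1 value lay under the floor, its log2 ratio was −1.08 or lower.

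**Figure D4:**
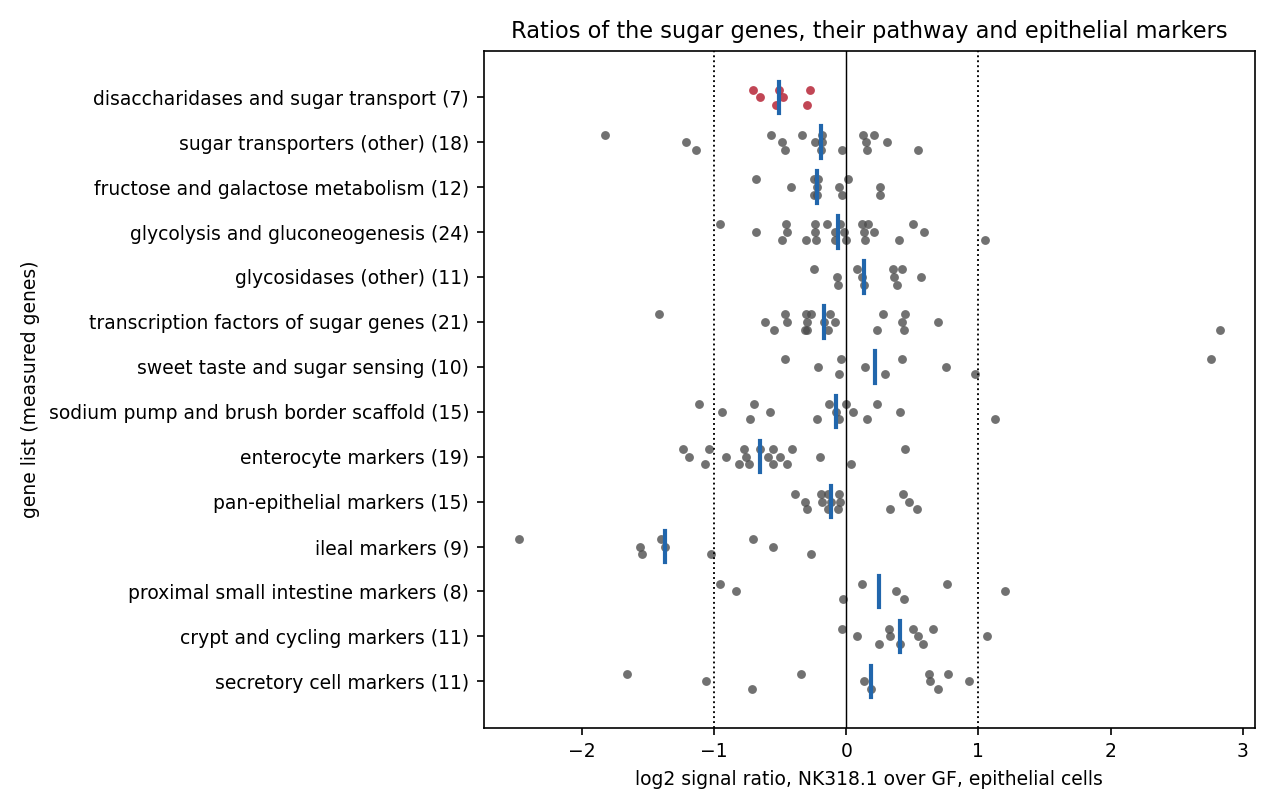
Epithelial log2 ratio of NK318.1 over GF, with 1 point per measured gene, for the sugar genes (red) and for lists of their pathway and of epithelial markers (grey). Blue bars give medians, −0.51 for the sugar genes and −0.65 for the enterocyte markers, and dotted lines mark 2-fold.

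The transcription factors known to act at sugar genes did not share 1 direction. Of 21 measured factors of 24 listed, 14 were below 0 in epithelial cells, with a median of −0.17. Cdx2 gave 611 in NK318.1 and 835 in GF epithelial cells (log2 ratio −0.45, and −0.52 by its other probe set). Hnf4a gave 2070 in NK318.1 and 2272 in GF (−0.13, but −0.65 to −0.27 by its 3 other measured probe sets). Gata4 gave 172 in NK318.1 and 127 in GF (0.44). Mlxipl, whose product ChREBP responds to glucose and fructose, gave 683 in NK318.1 and 511 in GF epithelial cells (0.42). Khk and Slc2a5 were lower in NK318.1 epithelial cells, and a link between Mlxipl and these genes was not tested. Past the 2-fold limit were Maf, with 453 in NK318.1 and 1209 in GF epithelial cells (−1.41, but −1.18 to −0.30 by its 5 other measured probe sets), and Pdx1, with 143 in NK318.1 and 20.2 in GF (2.83, but 0.07 by its other probe set). Cdx2, Gata4, Hnf4a, Mlxipl and Slc5a4a were named with their values known.

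Sugar sensing and the sodium gradient that drives SGLT1 were also listed. Of 10 measured genes of sweet taste and sugar sensing of 12, Gip was at least 2-fold higher, with 2598 in NK318.1 and 383 in GF epithelial cells (log2 ratio 2.76). Gip encodes the incretin that K cells of the proximal gut release after sugar, and the lowest of the list was the sweet receptor subunit Tas1r3 at −0.46. The sodium pump and the scaffold of the brush border had a median of −0.075 over 15 measured genes of 16. Pdzk1, a scaffold of apical carriers, was at least 2-fold lower (188 in NK318.1 and 406 in GF epithelial cells, −1.11), and Fxyd3, a regulator of the sodium pump, at least 2-fold higher (1297 in NK318.1 and 595 in GF, 1.13).

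Finally, the genes whose pattern over the 4 arrays was most like that of each sugar gene were found among 12927 candidates, by the root mean square difference of centred log2 signals. For Lct these were Reep6 (0.040), Rab4a (0.044) and Clrn3 (0.044). For Treh they were Slc26a6 (0.018), Rnf152 (0.048) and Apol7a (0.051), and for Mgam Tmigd1 (0.029), Tcim (0.087) and Dsp (0.089). Lct, Treh, Mgam, Slc5a1 and Slc2a2 were under the floor in the Peyer's patch, so the tissue step that makes up most of their pattern is itself set by the floor, and so is their likeness to other genes. Slc5a1 had Tmem45b (0.048), Tmem30b (0.050) and Tcim (0.063) nearest, and Slc2a2 had Anks4b (0.031), Nr1i2 (0.033) and Ctdspl (0.043). Slc2a5, measured on all 4 arrays, was nearest to Aldh3a2 (0.015), As3mt (0.029) and Msra (0.036), and Khk to Errfi1 (0.057), Treh (0.065) and Apol7a (0.068), of which Treh and Apol7a were under the floor in the Peyer's patch, unlike Khk. A likeness over 4 arrays is a description, with tissue as the main difference between them.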

How the data were processed

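RNA was hybridized to 4 Affymetrix arrays. The deposited values are a linear intensity (signal) per probe set, made by the authors with MAS5, whose version and scaling target the sources used here do not name. They were used without further scaling. Of 45037 probe sets, 9160 without a gene and 932 with several genes in the annotation were left out, as were 64 controls. Where a gene had several probe sets, the one with the highest mean log2 intensity was used. The floor of 15.5 was the 40th percentile of intensity, as the median of the 4 arrays. Ratios were taken within a tissue or within a group and counted at 2-fold, without a test. The adjusted p of the study's methods cannot be computed from 1 array per group.

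The 17 gene lists, of which the members are 1, were chosen with earlier results of these data known. Named were all members, list genes past 2-fold (up to 4 per list and direction), at least 1 end of each list, 4 reference genes and the 3 nearest patterns per member. In the leukocyte, gastric, pancreatic acinar, ileal and secretory lists, further genes past 2-fold were left unnamed. Other genes named with a value were picked with it known. Results were recomputed with median centring, quantile normalization, other floors or none, the mean over probe sets, leaving out less specific probe sets, other fold limits, and enterocyte or pan-epithelial markers as reference; the other Slc5a1 probe set was added with the values known. The computation was tested on simulated data. Sequences came from RefSeq (GRCm38.p6). Python 3.11.15, numpy 2.4.6, pandas 2.3.3 and matplotlib 3.10.9 were used.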

Additional observations from a re-analysis of the deposited data

Results flagged for a closer look

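Slc2a5 had opposite signs in the tissues, with a log2 ratio of NK318.1 over GF of −0.27 in epithelial cells and 0.23 in the Peyer's patch. The median of the other glycosidases was 0.14 in epithelial cells and −0.20 in the Peyer's patch. For the transcription factors of sugar genes the medians were −0.17 in epithelial cells and 0.11 in the Peyer's patch, and for sweet taste and sugar sensing 0.22 and −0.025. Each group had 1 array per tissue, so none of these 4 contrasts between tissues was tested.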

How the results depend on the processing

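Each of the 7 sugar genes stayed below 0 in epithelial cells under all alternatives but 1 (56 of 56 values), over ranges of −0.74 to −0.59 for Treh, −0.67 to −0.54 for Khk, −0.55 to −0.41 for Lct, −0.66 to −0.39 for Slc5a1, −0.50 to −0.36 for Mgam, −0.34 to −0.18 for Slc2a2 and −0.33 to −0.16 for Slc2a5. The exception took the median of the enterocyte markers as reference, which moved the median of all genes by itself to 0.67 and gave a median of 0.14 for the sugar genes. Many of the 56 values could not move. Each sugar gene lay above every floor in both epithelial arrays, so the floors left its ratio as it was. The mean over probe sets could change Slc5a1 alone, and leaving out less specific probe sets only removed Treh. At 1.5-fold in place of 2-fold, 2 sugar genes, Treh and Khk, counted as lower in epithelial cells, against 6.80% of all measured genes lower and 9.31% higher at that limit. Of 168 values under alternatives, 159 moved by less than the scatter of all genes' ratios or stayed within 1.5 times the count. The other 9 included the median and all 7 ratios in epithelial cells under the enterocyte reference, where 5 sugar genes lay above 0. No sugar gene was called at 2-fold between NK318.1 and GF mice, so no such call could change its sign. Leaving out less specific probe sets left 6 genes, without Treh, all 6 still higher in epithelial cells than in the Peyer's patch of NK318.1 and of GF mice. At 4-fold, 6 genes in NK318.1 and 7 in GF mice were higher in epithelial cells than in the Peyer's patch. Slc2a5 fell short in NK318.1 mice, at 3.56-fold. The share of all measured genes was not taken for these tissue counts, so they have no background beside them. In the Peyer's patch a floor at the 60th percentile left 1 sugar gene measured, and no floor gave all 7, from −0.40 to 0.23. No paired analysis was possible because there was a single array for each group and tissue. The arrays' number limits the precision, and Slc2a5 in the Peyer's patch lay near the floor.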

Other observations

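Marker lists of other cells and stretches of the gut gave these values in epithelial cells of NK318.1 over GF mice. Of 11 crypt and cycling markers, 10 were above 0, with a median log2 ratio of 0.41 and the proliferation gene Mki67 highest at 1.06. Secretory cell markers had a median of 0.19 over 11 genes, from the matrilysin gene Mmp7 of Paneth cells at −1.66 to the chromogranin gene Chgb at 0.93, and 2 were at least 2-fold lower. The 8 measured proximal small intestine markers had a median of 0.25, from Ifrd1 at −0.95 to the iron exporter gene Slc40a1 at 1.20. Their relation to the sugar genes was not tested.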
